A study of Mus musculus with 6 samples.

Results

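Regulators and markers of neural progenitors and of neurogenesis were read from cerebral cortex arrays as 9 genes, *Sox2*, *Sox4*, *Sox9*, *Sox11*, *Pax6*, *Dcx*, *Nes*, *Neurod1* and *Bhlhe22*. They were chosen by name, with earlier results of these data known. Every probe set whose gene symbol entry held one of these names was taken. This gave 31 of 45077 probe sets and 9 of 22527 gene symbols. Each probe set pools several short probes for 1 stretch of a transcript, and a gene can have more than 1. The arrays, Affymetrix mouse PM strips, measured cortical RNA of male mice in 3 groups of 2 mice. SAMR1 + Water is the senescence-resistant strain that ages at a normal pace. SAMP8 + Water, called SAMP8 control, is the senescence-prone strain, which was obtained by selective breeding and carries no transgene. SAMP8 + STEE is the same strain given an ethanolic extract of sugarcane tops (STEE) by mouth at 20 mg/kg a day. Extract or water was given for 30 days and through 8 further days of behavioral testing. The paper states that BrdU, a label of dividing cells, was also given to all animals in drinking water during the administration. The labels give the age as 16 weeks for all groups and do not say whether that is the age at the start or at sampling. The authors' mean log2 signal of each group was the only measured value used, so that each number below is a mean of 2 mice without a spread. No difference was tested here or set against the variation between mice, and n = 2 per group limits the precision of all values.

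During brain development, neural stem cells first divide, held in that state by factors such as SOX2 and PAX6, and then give rise to committed progenitors in which basic helix-loop-helix factors such as NEUROD1 start the neuronal program. Newborn neurons switch on *Sox4* and *Sox11*, close relatives of the SoxC group, and doublecortin, the microtubule-binding protein encoded by *Dcx*. In the adult brain these steps go on mainly in the dentate gyrus of the hippocampus and in the ventricular-subventricular zone, from which young neurons migrate to the olfactory bulb. The adult cerebral cortex itself makes few or no new neurons, and several of the same genes serve there in glia and in mature neurons.

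Promoter sequences are shown for the 3 newborn neuron genes, *Sox4*, *Sox11* and *Dcx*, which hold 5 of the 6 calls made with STEE below. *Sox4* holds 3 of these calls, and *Sox11* and *Dcx* hold 1 each. Of the 31 probe sets, 8 are of *Sox4*, 5 of *Sox11* and 4 of *Dcx*. The median differences with STEE over these probe sets were -0.15, -0.04 and -0.155 in the same order. None reached the threshold of 0.2 used below, so the count of calls does not describe the 3 genes as a class. The sequences come from RefSeq (GRCm38.p6), and 7 of the 9 genes were matched there. *Sox9* and *Bhlhe22* were not. Each stretch runs 5′ to 3′ on the gene's strand from 250 bases before the annotated start to 50 bases from it. The *Sox4* window is chr13:28953650-28953949, minus strand. The *Sox11* window is chr12:27342669-27342968, minus strand. For *Dcx*, the window of the upstream start among its 2 annotated starts is chrX:143933170-143933469, minus strand. Capitals mark matches, on either strand, to an E-box (CATATG), to another E-box used by proneural factors (CAGCTG), and to a further one of the NEUROD family (CAGATG). They also mark the core letters bound by Sox proteins (ACAANG), the TATA box (TATAAA), the GC box (GGGCGG) and the CCAAT box (CCAAT). The matches in the 3 windows did not overlap each other.
Sox4: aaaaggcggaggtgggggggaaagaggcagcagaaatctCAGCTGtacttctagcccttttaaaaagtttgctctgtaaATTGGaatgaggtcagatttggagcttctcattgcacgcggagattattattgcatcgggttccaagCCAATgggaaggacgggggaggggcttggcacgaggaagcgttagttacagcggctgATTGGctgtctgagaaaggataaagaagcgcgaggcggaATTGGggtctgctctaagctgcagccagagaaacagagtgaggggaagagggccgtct
Sox11: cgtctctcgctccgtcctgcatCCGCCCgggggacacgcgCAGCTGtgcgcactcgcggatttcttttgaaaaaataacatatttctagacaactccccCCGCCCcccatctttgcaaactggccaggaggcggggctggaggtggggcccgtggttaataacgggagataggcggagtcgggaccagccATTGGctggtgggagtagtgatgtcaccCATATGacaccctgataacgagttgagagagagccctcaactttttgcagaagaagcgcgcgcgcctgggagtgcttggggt
Dcx: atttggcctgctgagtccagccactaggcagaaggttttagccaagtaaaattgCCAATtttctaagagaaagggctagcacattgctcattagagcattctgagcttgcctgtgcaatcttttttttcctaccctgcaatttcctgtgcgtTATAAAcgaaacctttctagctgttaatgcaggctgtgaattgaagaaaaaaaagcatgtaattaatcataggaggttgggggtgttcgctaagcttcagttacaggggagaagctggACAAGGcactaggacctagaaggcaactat

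The E-box CAGCTG, which is its own reverse complement, lay in both SoxC windows, at position -211 from the start in *Sox4* and at -210 in *Sox11*. It was found in 16.3% of all 32851 windows of this length. CATATG was found in 3.91% of them and, among the 9 windows of these genes, in *Sox11* and *Neurod1*. *Sox4* had 4 CCAAT matches, a motif found in 37.4% of all windows, and no GC box, which 35.7% held. *Dcx* had TATAAA (13.6% of all windows) and a Sox core match (41.2%). CAGATG, in 17.2% of all windows, was in none of the 9. A match of letters is no evidence of binding.

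A probe set was called when its group means differed by at least 0.2 on the log2 scale, a fold of 1.15. In SAMP8 control vs. SAMR1, the question was how the senescence-prone cortex differs from the normally aging one. Of the 31 probe sets, 6 were called lower in SAMP8 control and 2 higher. Over all 45077 probe sets, 6.93% were called lower and 6.73% higher, so that the 19.4% of member probe sets called lower stood above the background and the 6.5% called higher near it. The genes were chosen with earlier results of these data known, so this excess is a description and no independent finding. Of the 6 called lower, 1 each of *Sox11* and *Neurod1* lay exactly at -0.20, and without differences at the threshold the counts were 4 lower and 2 higher (background 6.3% and 6.16%), an alternative chosen after seeing the data. At a threshold of 0.1 the counts were 9 lower and 7 higher (background 21.1% and 18.8%), and at 0.3 they were 1 lower and 2 higher (2.5% and 2.84%). Large differences were commoner among bright probe sets: at or above the median signal, 9.85% of all probe sets were called lower and 11.0% higher, and 7 of the 8 calls were in the 19 member probe sets of that range. The calls lay in 6 genes. *Sox2*, *Sox9*, *Neurod1* and *Bhlhe22* were lower at each of their probe sets, *Sox4* was higher at each of its own, and *Sox11* had calls in both directions. The median gene value, which is the median difference over the probe sets of a gene, was -0.14 over the 9 genes and 0.00 over all genes, and it depended on how probe sets were combined, lying between -0.14 and -0.025 over the alternatives. By this gene value 2 of the 9, *Sox2* and *Bhlhe22*, were called lower and 0 higher, where 4.33% and 4.96% of all 22527 genes were.

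With STEE, compared with SAMP8 control, the question was whether cortical levels of these genes differ after the extract. Of the 31 probe sets, 6 (19.4%) were called lower and 0 higher, where the background was 2.91% lower and 3.15% higher. Here too the excess is a description, because the genes were chosen with earlier results known. Without *Pax6*, which lay exactly at -0.20, the counts were 5 lower and 0 higher (background 2.44% and 2.68%). At a threshold of 0.1 the counts were 13 lower and 3 higher, with a background of 15.2% each way, and at 0.3 they were 1 lower and 0 higher (0.595% and 0.668%). Of the 19 member probe sets at or above the median signal, 4 were called lower and 0 higher (3.34% and 4.84% of all such probe sets). The 6 calls lay in 4 genes, 3 in *Sox4* and 1 each in *Sox11*, *Pax6* and *Dcx*. In all, 21 of the 31 probe sets were lower and 10 higher. By the gene value 0 of the 9 genes were called in either direction, where 1.73% of all genes were called lower and 2.04% higher. The median gene value was -0.04, against 0.00 over all genes, and lay between -0.18 and -0.026 over the alternatives, while *Sox4* with its 8 probe sets supplied 3 of the 6 calls. Probe sets of the same gene were measured on the same arrays and are not independent. In whole cortex, fewer cells of a type, less RNA per cell and a different share of neighboring tissue in the sample cannot be told apart. The SAMP8 control arrays enter both comparisons, and the values of the 2 are therefore set side by side and neither supports the other.

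**Figure D1:**
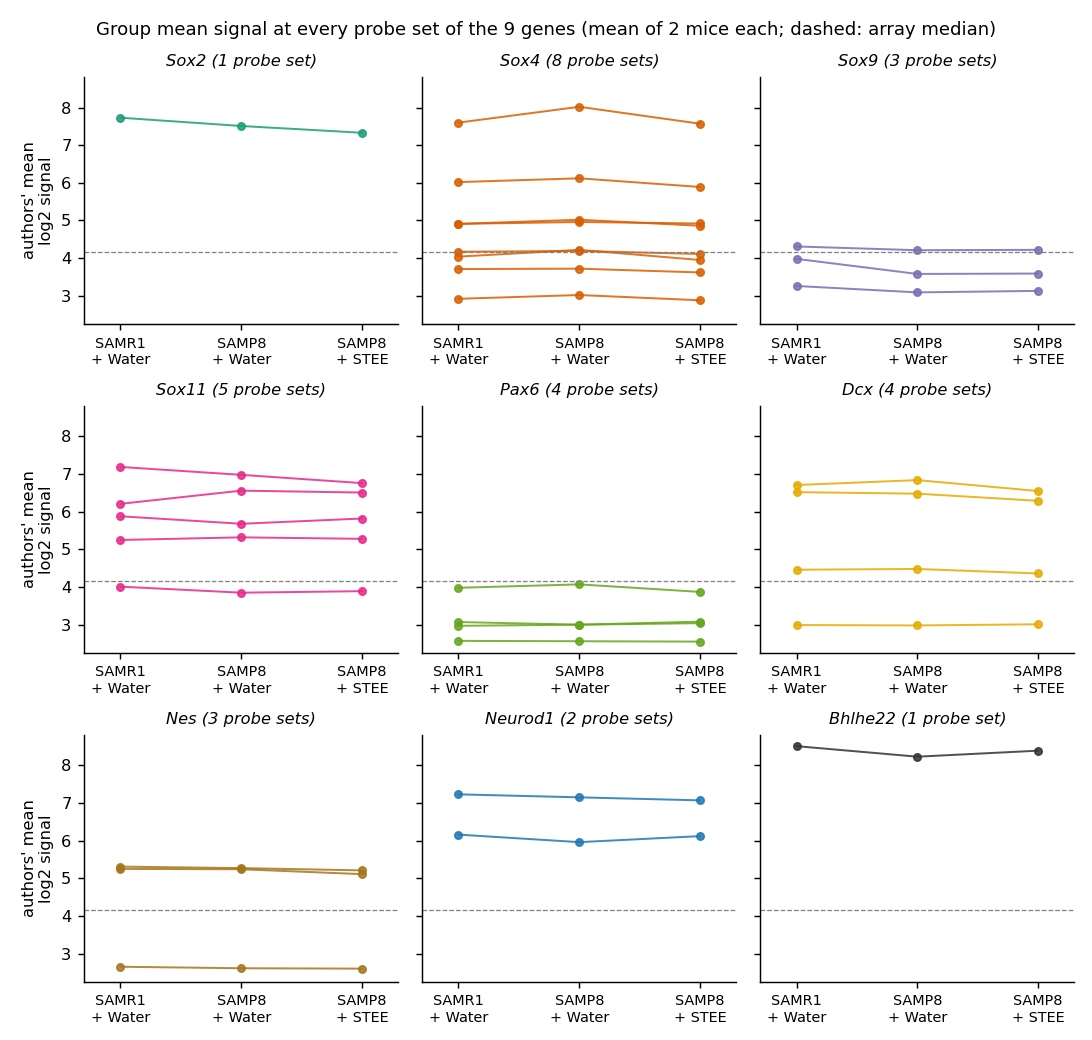
Authors' mean log2 signal (y axis) in SAMR1 + Water, SAMP8 + Water and SAMP8 + STEE (x axis) for each of the 31 probe sets, 1 panel per gene and 1 line per probe set, each point the mean of 2 mice. The dashed line is the median of all probe sets, 4.15. All 8 lines of *Sox4* peak in SAMP8 control, while the lines of *Sox11* run in different directions.

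*Sox2*, the transcription factor that maintains neural stem cells and is also made by adult glia, had a single probe set (1416967_PM_at). Its mean log2 signal was 7.73 in SAMR1, against 7.51 in SAMP8 control and 7.33 with STEE. The highest value was thus that of SAMR1, and STEE-fed mice stood lowest. SAMP8 control was 0.22 below SAMR1, a call, and STEE-fed SAMP8 was a further 0.18 below SAMP8 control, which missed the threshold. Of all probe sets, 92.9% had an absolute difference with STEE no larger than this.

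*Sox9*, which drives gliogenesis and marks astrocytes in the adult, had 3 probe sets, all with SAMP8 control below SAMR1. The difference was -0.40 at 1451538_PM_at, where the mean log2 signal was 3.98 for SAMR1, 3.58 for SAMP8 control and 3.59 with STEE. It was -0.10 at the brightest probe set (4.31, 4.21 and 4.22) and -0.17 at the faintest (3.26, 3.09 and 3.13). Only the first of these was called, and it lies below the median signal of the array. With STEE the 3 probe sets differed by 0.01, 0.01 and 0.04, so that both SAMP8 groups stood at nearly the same level.

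*Pax6*, a paired-box factor of radial glia and of olfactory bulb interneurons, gave faint signals at all 4 probe sets, between 2.55 and 4.07, below the array median. The brightest, 1419271_PM_at, read 3.98 in SAMR1, 4.07 in SAMP8 control and 3.87 with STEE, a difference of -0.20 with STEE that lies exactly at the threshold. The other 3 differed by -0.01, 0.04 and 0.08. In SAMP8 control vs. SAMR1 the 4 differences ran from -0.07 to 0.09, without a call. With STEE, *Pax6* thus had probe sets on either side of 0.

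*Nes* encodes nestin, an intermediate filament of neural stem cells that dividing vessel cells also use. At 1418289_PM_at it read 5.25 in SAMR1, 5.24 in SAMP8 control and 5.11 with STEE. At 1449022_PM_at the values were 5.31, 5.27 and 5.21, and at the faintest probe set 2.65, 2.61 and 2.60. No probe set was called in either comparison. With STEE the 3 differences of -0.13, -0.06 and -0.01 were all downward, and those of SAMP8 control vs. SAMR1 were between -0.04 and -0.01.

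*Neurod1*, the helix-loop-helix factor of late progenitors and young granule neurons, had 2 probe sets. The brighter, 1426413_PM_at, read 7.23 in SAMR1, 7.15 in SAMP8 control and 7.07 with STEE. The other, 1426412_PM_at, read 6.16, 5.96 and 6.12. SAMP8 control was below SAMR1 at both, by 0.08 and by 0.20, and only the latter was called. With STEE the differences had opposite signs, -0.08 and 0.16, although the array lists the same target transcript for both.

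*Bhlhe22*, a helix-loop-helix factor of postmitotic cortical projection neurons, had a single, bright probe set (1418271_PM_at). It read 8.51 in SAMR1, 8.23 in SAMP8 control and 8.39 with STEE. SAMP8 control was lower than SAMR1 by 0.28, a fold of 1.21. With STEE it was 0.16 higher than in SAMP8 control, a fold of 1.12 and short of the threshold, and it remained 0.12 below SAMR1. Together with 1 probe set of *Neurod1*, this was the largest upward difference with STEE among the 31.

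*Sox4*, the SoxC factor of committed progenitors and newborn neurons, had 8 probe sets and held the largest difference of each comparison. At 1433575_PM_at the mean log2 signal was 7.60 in SAMR1, 8.02 in SAMP8 control and, with STEE, 7.57. SAMP8 control thus stood 0.42 above SAMR1, a fold of 1.34, and STEE-fed SAMP8 stood 0.45 below SAMP8 control, a fold of 1.37. Of all probe sets, 99.8% differed with STEE by no more than this. STEE-fed SAMP8 and SAMR1, which share no arrays, were 0.03 apart. The other 2 calls with STEE were at 1419157_PM_at, -0.27 (4.04, 4.22 and 3.95), and at 1419155_PM_a_at, -0.23 (6.02, 6.12 and 5.89).

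The remaining 5 *Sox4* probe sets were lower with STEE by between -0.04 and -0.16, and SAMP8 control exceeded SAMR1 at all 8, by 0.01 to 0.42, with 1 call. The size of the difference varied between probe sets. At the 4 probe sets the array assigns to the same target, the differences with STEE ran from -0.04 to -0.27. The 2 probe sets of another target were at -0.08 and -0.10 with STEE and at 0.02 and 0.01 in SAMP8 control vs. SAMR1. The median over the 8 probe sets was -0.15 with STEE and 0.10 in SAMP8 control vs. SAMR1, both short of the threshold.

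*Sox11*, a SoxC relative of *Sox4* with which it shares roles in newborn neurons, had 5 probe sets that differed in direction. The brightest, 1436790_PM_a_at, read 7.19 in SAMR1, 6.98 in SAMP8 control and 6.76 with STEE, which is -0.21 and then -0.22. By contrast, 1453125_PM_at read 6.21 in SAMR1 and 6.56 in SAMP8 control, a difference of 0.35, and 6.51 with STEE. At 1429051_PM_s_at it was 5.88, 5.68 and 5.82. The 5 probe sets therefore spanned 0.56 on the log2 scale in SAMP8 control vs. SAMR1, from -0.21 to 0.35, the widest span of any of the 9 genes, and 0.36 with STEE. The array lists the same target for 1453125_PM_at and for the faintest probe set, which differed by 0.35 and -0.16. No direction can be given for *Sox11* as a gene.

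*Dcx*, the marker of migrating young neurons, had 4 probe sets, all assigned to the same target. The brightest, 1418141_PM_at, read 6.71 in SAMR1, 6.84 in SAMP8 control and 6.55 with STEE, a difference of -0.29 with STEE and a fold of 1.22. At 1418139_PM_at the values were 6.52, 6.48 and 6.29, and at 1418140_PM_at 4.46, 4.48 and 4.36. These 3 probe sets above the array median were all lower with STEE, by -0.29, -0.19 and -0.12, and only the first was called. The faintest read 2.99, 2.98 and 3.01. Between the strains, the 4 differences lay between -0.04 and 0.13 without a call.

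**Figure D2:**
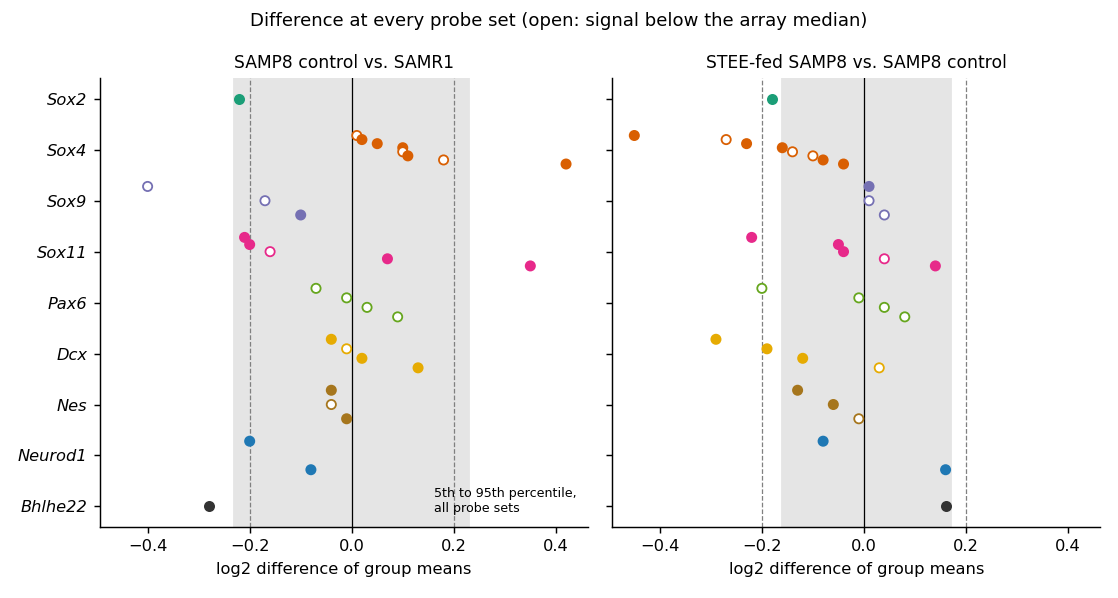
Log2 difference of group means (x axis) at every probe set, by gene (y axis), for SAMP8 control vs. SAMR1 (left) and STEE-fed SAMP8 vs. SAMP8 control (right); the grey band spans the 5th to the 95th percentile of all 45077 probe sets, -0.23 to 0.23 on the left and -0.16 to 0.17 on the right. Dashed lines mark the threshold of 0.2, and open points have a signal below the array median. On the right, *Sox4* points reach furthest to the left, at -0.45, and no point passes 0.2 on the upper side.

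STEE-fed SAMP8 and SAMR1 were set side by side as well, since this difference does not contain the SAMP8 control arrays. These groups differ in both strain and extract. STEE-fed SAMP8 was lower than SAMR1 at 26 of the 31 probe sets and higher at 5. The matching share over all probe sets was not counted. Probe sets of the same gene are not independent, and the 8 of *Sox4* lay between -0.13 and 0.01. By the same threshold 4 of the 31 were lower, 1 each in *Sox2* (-0.40), *Sox9* (-0.39), *Sox11* (-0.43) and *Dcx* (-0.23). Of *Sox11*, 1 was higher, by 0.30. Of all probe sets, 6.84% were called lower and 8.22% higher. The median over the 31 probe sets was -0.09, against -0.01 over all probe sets. The lower calls in *Sox2*, *Sox11* and *Dcx* add up differences that were downward in both steps, while that of *Sox9* was as large in SAMP8 control already. STEE-fed SAMP8 was the lowest of the 3 groups at 18 of the 31 probe sets and the highest at 2. Over all 45077 probe sets it was the lowest at 33.1% and the highest at 28.4%, where a tie counted for neither.

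**Figure D3:**
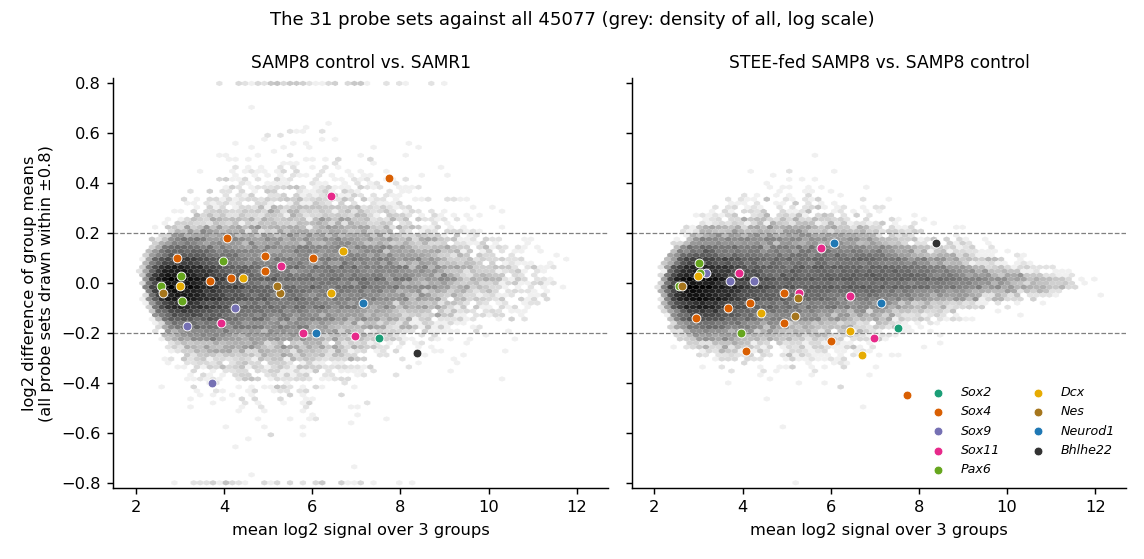
Log2 difference (y axis) against the mean log2 signal over the 3 groups (x axis), with the density of all 45077 probe sets in grey on a log scale and the 31 probe sets of the 9 genes in colour. The brightest *Sox4* probe set, at a mean signal of 7.73, lies at 0.42 on the left and at -0.45 on the right, away from most probe sets of similar signal with STEE.

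Further genes of the pathway were read from lists by the gene value and called at 0.2, against the gene backgrounds above. Among 16 other genes of stem cells and radial glia, 3 were called lower with STEE and 0 higher, with a list median of -0.09, and 3 were called higher and 1 lower in SAMP8 control vs. SAMR1. *Fabp7*, the lipid-binding protein of radial glia and astrocytes, read 8.26 in SAMR1, 8.43 in SAMP8 control and 7.63 with STEE at its only probe set, a difference of -0.80 with STEE. *Hes1*, the Notch effector that keeps progenitors undifferentiated, differed by 0.25 in SAMP8 control vs. SAMR1 and by -0.32 with STEE. Its only probe set was near the array median of 4.15, at 4.0 in SAMR1, 4.25 in SAMP8 control and 3.93 with STEE. *Prom1*, which encodes the progenitor surface protein prominin, was the 1 called lower in SAMP8 control (-0.45), and *Emx2* (0.21), a homeobox gene of the dorsal forebrain, was among the 3 called higher. Of 13 other genes of intermediate progenitors and proneural factors, 4 were called lower with STEE and 0 higher, with a median of -0.13, and 4 were called higher and 1 lower, *Btg2* (-0.325), in SAMP8 control vs. SAMR1. *Eomes*, which encodes TBR2 and marks intermediate progenitors and some olfactory bulb neurons, differed by 0.585 in SAMP8 control vs. SAMR1 and by -0.69 with STEE. Its signal, the median over 2 probe sets, was also near the array median, at 3.87 in SAMR1, 4.46 in SAMP8 control and 3.77 with STEE. *Dlx1*, a homeobox gene of interneuron precursors, differed by 0.59 in SAMP8 control vs. SAMR1 and by -0.51 with STEE.

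Among 10 proliferation genes, *Ccnd2*, the cyclin of neurogenic progenitors, was called higher in SAMP8 control vs. SAMR1 (0.22) and was the 1 called lower with STEE (-0.35). *Pcna* (0.22) was also called higher in SAMP8 control vs. SAMR1, and *Ccnd1* (-0.27) lower. The list medians were 0.037 in SAMP8 control vs. SAMR1 and -0.065 with STEE. *Mki67*, *Top2a*, *Ccnb1*, *Cdk1*, *Aurkb* and *Bub1*, all with signals below the array median of 4.15, were not called in either comparison. Of 17 other genes of newborn and immature neurons, 1 was called lower with STEE, *Calb2* (-0.73), the calcium-binding protein calretinin, and the list median was -0.025. In SAMP8 control vs. SAMR1, *Cd24a* (0.24) was called higher and *Nnat* (-0.25) lower. Among 14 other helix-loop-helix and cortical differentiation factors, 2 were called higher with STEE, *Tbr1* (0.29) and *Fezf2* (0.27), both of deep-layer projection neurons, and *Bhlhe40*, an activity-regulated repressor, lower (-0.41). In SAMP8 control vs. SAMR1, *Bhlhe40* was called higher (0.39) and *Neurod6*, a relative of *Neurod1* in mature excitatory neurons, lower (-0.25). Of 13 other Sox genes, 0 were called in SAMP8 control vs. SAMR1 and 1 with STEE, *Sox21* (-0.27), which is also among the 3 stem cell genes called lower.

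The labelled tissue and its neighbors were checked with marker lists, called by the gene value. Of all genes, 4.33% were called lower and 4.96% higher in SAMP8 control vs. SAMR1. With STEE these shares were 1.73% and 2.04%. The 10 markers of cortical excitatory neurons had mean log2 signals of 7.13 in SAMR1, 7.14 in SAMP8 control and 7.27 with STEE, well above the array median of 4.15, with 1 called lower in SAMP8 control vs. SAMR1 and 2 called higher with STEE. Of 11 measured markers of the ventricular zone and olfactory neuroblasts, 8 were called higher in SAMP8 control vs. SAMR1 and 6 lower with STEE, with none called the other way. Their mean signals were 4.54, 4.83 and 4.53 in the same order, led by *Meis2* (0.595) and *Dlx1* in the former comparison and by *Eomes* and *Th* (-0.58) in the latter. *Dlx1*, *Dlx2*, *Eomes* and *Cd24a* are on this list and on those above, as *Neurod6*, *Tbr1* and *Fezf2*, the 3 excitatory marker calls, are on that of differentiation factors. The medians of the ventricular zone and olfactory neuroblast list were 0.3 in SAMP8 control vs. SAMR1 and -0.28 with STEE. All *Sox4* probe sets differed in the same directions as these medians. Of the 9 genes, 6 had a gene value below 0 in SAMP8 control vs. SAMR1 and 5 with STEE. The part of these markers in the differences of *Sox4* and *Dcx* was not tested. All 10 striatal markers were called higher in SAMP8 control vs. SAMR1, with mean signals of 6.44 and 7.04, and 0 were called with STEE (7.08). Of 10 choroid plexus markers, 7 were called lower in SAMP8 control vs. SAMR1 (4.13 and 3.70), with *Ttr* at -2.03, and 2 higher with STEE (3.85). Of 10 oligodendrocyte lineage markers, 6 were called lower and 1 higher in SAMP8 control vs. SAMR1 (7.41 and 7.20), and 0 with STEE (7.27). The 10 astrocyte markers, which bear on *Sox2* and *Sox9*, had means of 7.23, 7.14 and 7.20, with 1 called each way in SAMP8 control vs. SAMR1 and 2 higher with STEE. The 10 endothelial and pericyte markers, which bear on *Nes*, had means of 5.55, 5.52 and 5.48, with 2 called lower and 1 higher in SAMP8 control vs. SAMR1 and 1 lower with STEE. The part of these lists in the differences of the 9 genes was not tested.

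**Figure D4:**
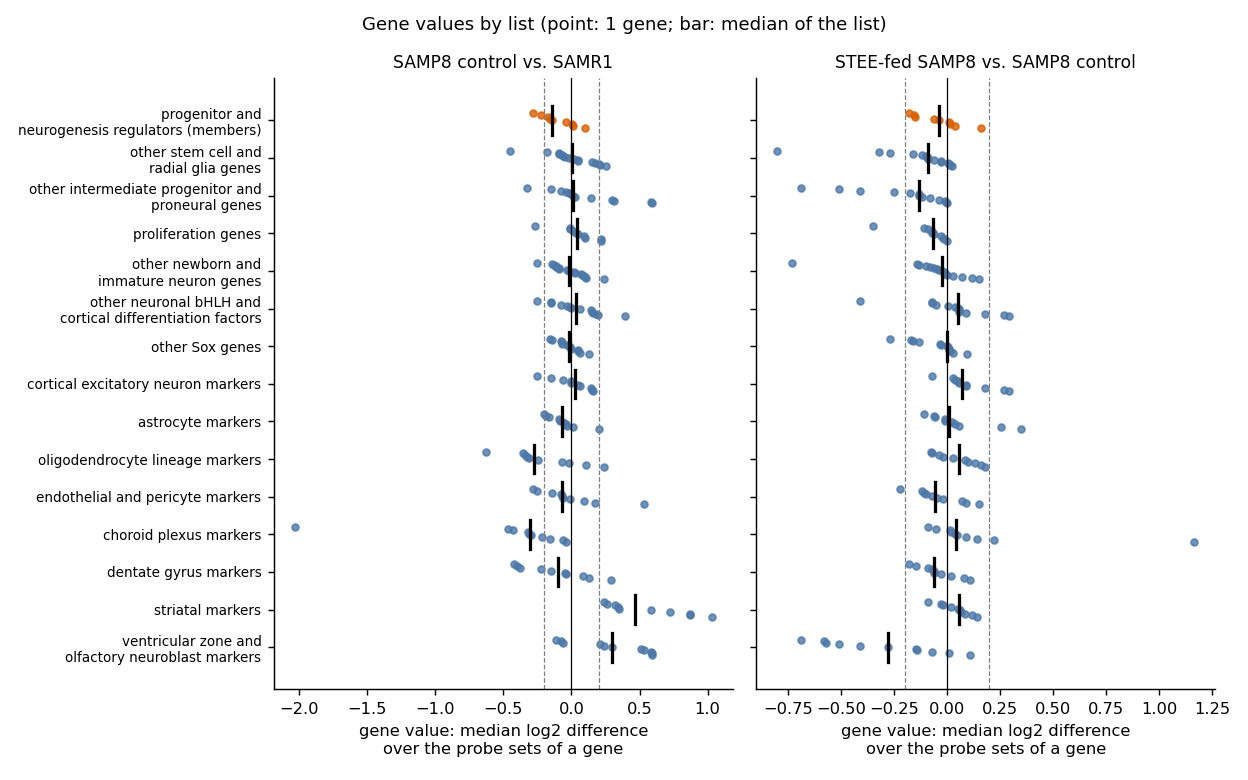
Gene value (x axis, the median log2 difference over the probe sets of a gene) for every measured gene of each list (y axis), in SAMP8 control vs. SAMR1 (left) and STEE-fed SAMP8 vs. SAMP8 control (right); a point is 1 gene, a bar is the list median, and dashed lines mark 0.2. The markers of ventricular zone and olfactory neuroblasts have medians of 0.3 on the left and -0.28 on the right, and the 9 members, in orange, -0.14 and -0.04.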

How the data were processed

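Cortical RNA of 6 male mice, 2 per group, was amplified, labelled with biotin and read on Affymetrix mouse PM array strips, 1 array per mouse. Per the labels and the methods, the authors summarised probe intensities by RMA (Expression Console), and the group comparisons were made with Transcriptome Analysis Console, all named in the submitters' processing notes. The genome build behind the annotation is not given in the sources used here. The authors deposited, for 45077 probe sets in 2 tables, the log2 signal of each group as a bi-weight average over its arrays, rounded to 2 decimals. They also deposited linear fold changes, ANOVA p-values and FDR p-values, which were not used. No value per array was used, so no spread, test or pairing of mice was computed here. RMA shrinks differences of faint probe sets, and rounding can change a difference by up to 0.01.

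Differences of group means were computed per probe set with Python 3.11.15, numpy 2.4.6 and pandas 2.3.3, and called at 0.2; figures were drawn with matplotlib 3.10.9. The gene value is the median over the probe sets of a gene, with symbol entries split at semicolons. No signal filter was applied. The SAMP8 control means were identical in both tables. The calculation was tested on a copy of the deposited means into which known differences were put, without variation between mice. The genes named are the 9 members and, of each list, some of the up to 2 genes with the largest gene values called in each direction. Also named are proliferation genes that were not called and genes that lists share. *Prox1* was added after its values were seen. The members and lists were chosen with earlier results of these data known. *Drd1* was matched through an older symbol, and 1 listed marker, *Sp9*, was not matched. Alternatives were other thresholds (0.1 and 0.3), a signal filter, centring, leaving out probe sets of the _s_at, _x_at and _a_at classes, which can match several transcripts, single-symbol probe sets, and other ways to form a gene value.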

Additional observations from a re-analysis of the deposited data

How the results depend on the processing

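At a threshold of 0.1, 7 member probe sets were called higher and 9 lower in SAMP8 control vs. SAMR1, and 3 higher and 13 lower with STEE, beside a background of 18.8% higher and 21.1% lower in the former and 15.2% each way in the latter. Leaving out differences exactly at 0.2, chosen after seeing the data, gave 2 higher and 4 lower, and 0 higher and 5 lower. At 0.3 the counts were 2 higher and 1 lower in SAMP8 control vs. SAMR1, and 0 higher and 1 lower with STEE. The median of the 9 gene values, -0.14 in SAMP8 control vs. SAMR1 and -0.04 with STEE, was -0.08 and -0.18 with the highest-signal probe set per gene, -0.03 and -0.026 with the mean over probe sets, -0.025 and -0.06 without the _s_at, _x_at and _a_at probe sets, and -0.083 and -0.07 with the probe sets at or above median signal, where *Pax6* had none. The cause was not tested. Without the _s_at, _x_at and _a_at probe sets, 4 member probe sets were called lower in each comparison, and the gene value of *Sox11* in SAMP8 control vs. SAMR1 changed sign, as did that of *Pax6* with STEE. With the highest-signal probe set, *Pax6* and *Neurod1* changed sign with STEE, and with the mean over probe sets *Pax6* did. Centring could not change these values, since the median difference over all probe sets was 0.0 in both comparisons. The single-symbol rule could not either, since none of the member probe sets had several symbols. The other SAMP8 control column gave no alternative, since both columns were identical. No paired analysis was possible because the tables hold group means, with no value for a single mouse; leaving out a mouse could not be done for the same reason. With group means alone, no difference was set against the variation between mice.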

Other observations

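Of 10 dentate gyrus markers, the hippocampal site of adult neurogenesis, 4 were called lower and 1 higher in SAMP8 control vs. SAMR1, with a median of -0.10, and 0 were called with STEE, with a median of -0.06. Of all genes, 4.33% were called lower and 4.96% higher in SAMP8 control vs. SAMR1, and 1.73% and 2.04% with STEE. *Lct* (-0.42) and *Dsp* (-0.40) were lowest in SAMP8 control vs. SAMR1, and *C1ql3* (0.29) was the 1 higher. *Prox1*, the homeobox gene that specifies granule neurons, had gene values of -0.15 and -0.07, with 1 probe set at -0.76 in SAMP8 control vs. SAMR1. Neither gene value was called, and *Prox1* was added here after its values were seen.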
